A study of Mus musculus with 3 samples.

Results

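The Ms4a genes described here are Ms4a1, Ms4a4b, Ms4a4c, Ms4a6b, Ms4a6c, Ms4a6d and Ms4a7, 7 members of a mouse family of small membrane proteins. They were taken by name from the 16267 genes that all 3 expression matrices of the study list, and each was followed across cell clusters and tissues to see which member marks which leukocyte. The proteins cross the membrane 4 times and resemble CD20, the B cell antigen that Ms4a1 encodes. Family members sit beside signalling receptors and adjust what the receptor passes on: the family's Ms4a2 is the beta chain of the mast cell IgE receptor, and mouse Ms4a4b has been found with the T cell receptor GITR. Macrophages and microglia use other members, and the human MS4A locus is a known risk locus for Alzheimer's disease.

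The study asked what microglia, the resident macrophages of the brain, do for the immune cells around brain metastases, and it read RNA together with 35 antibody tags in single cells (CITE-seq, 10x 3' v3). All mice were C57Bl/6 females of 2 to 3 months that carried Cx3cr1CreERT, received tamoxifen, rested for 1 month and then received diphtheria toxin. In the depleted arm a second allele, ROSA-iDTR, put a toxin receptor on cells in which Cre had acted, whereas control mice carried Cx3cr1CreERT alone. Cx3cr1 is active in monocytes as well as microglia, so the Cre driver is not restricted to microglia, and per the submitters depleted brains keep a remnant of them. Metastases came from E0771 mammary tumour cells injected into the carotid artery about 2 weeks earlier. Each sample was 1 brain hemisphere, enriched for immune cells on Percoll, or blood freed of red cells, and 8 samples were hashed into 1 pool. The deposited matrices cover the brain with metastases (5933 cells), the naive brain (2653 cells) and the blood of mice with metastases (2924 cells). Arms were given for the naive brain, with 1868 cells labelled depleted and 785 labelled control, and for the blood, with 1553 labelled depleted and 1371 labelled control. Arms of the brain with metastases were not used here, and its cells form 1 pooled sample.

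With 1 hashed sample per arm and tissue, no test between conditions was possible and no p-value is given. Intervals are exact Poisson or Clopper-Pearson 95% intervals, which cover counting error only and not the spread between mice. Levels are corrected UMIs per 10000 (CP10k), and the median cell held 13647 corrected UMIs in the brain with metastases, 9613 in the naive brain and 5118 in blood. Reads came from transcript 3' ends, so a level is compared between cells for 1 gene and not between genes. Of all cells, 17.1% (brain with metastases), 29.1% (naive brain) and 28.5% (blood) had a barcode that another matrix also lists, and all 339 barcodes common to naive brain and blood had equal raw UMI totals in both. Where a cluster level, gate level or ratio moved by over 1.5 times or changed its order without such cells, the value without them is given too. Cx3cr1 went against the arm labels: the microglia cluster of the naive brain had 10.0 CP10k in depleted-labelled cells and 1.72 CP10k in control-labelled cells. That cluster held 686 of the 1868 depleted-labelled cells and 134 of the 785 control-labelled cells. The nonclassical monocyte-like cluster of the naive brain held 18 depleted-labelled and 148 control-labelled cells. Cells are therefore called depleted-labelled or control-labelled throughout. Clusters of the naive brain and blood are the authors', clusters of the brain with metastases were made here without any Ms4a gene, and names ending in "-like" come from marker lists. The classical monocyte-like cluster of the naive brain was led by Cxcl9 and Fabp5 and passed for 5 of 10 macrophage markers beside 8 of 8 monocyte markers. The microglia-like cluster of the naive brain was also led by Jchain and Prss34, and the microglia-like cluster of the blood shared 82.7% of its barcodes with another matrix.

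The 7 genes lie in 1 cluster on mouse chromosome 19. In the RefSeq annotation of GRCm38.p6 they run from chr19:11249679 to 11604804, over 355126 bases, in the order Ms4a1, Ms4a7, Ms4a4c, Ms4a4b, Ms4a6c, Ms4a6b and Ms4a6d, and 11 Ms4a genes lie in that span. RefSeq promoter windows of the same build, 250 bases before to 50 after the annotated start, were at hand for 5 of the 7 members and are shown because neighbouring members differ in the leukocyte they mark. Capitals mark GGAAGT or its reverse complement, a form of the GGAA core that ETS family factors such as PU.1 recognise.
Ms4a7, chr19:11336097-11336396, minus strand: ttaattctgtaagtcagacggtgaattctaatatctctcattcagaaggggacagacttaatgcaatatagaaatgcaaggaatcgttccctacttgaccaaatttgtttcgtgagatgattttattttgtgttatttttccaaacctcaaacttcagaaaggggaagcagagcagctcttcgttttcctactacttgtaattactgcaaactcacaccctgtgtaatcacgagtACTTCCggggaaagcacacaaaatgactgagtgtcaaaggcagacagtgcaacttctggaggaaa
Ms4a4c, chr19:11407411-11407710, plus strand: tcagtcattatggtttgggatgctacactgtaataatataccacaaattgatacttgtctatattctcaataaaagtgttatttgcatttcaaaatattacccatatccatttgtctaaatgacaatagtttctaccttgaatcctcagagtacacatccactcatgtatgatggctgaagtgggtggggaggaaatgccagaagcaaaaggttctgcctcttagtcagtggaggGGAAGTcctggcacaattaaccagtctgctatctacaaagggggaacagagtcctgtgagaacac
Ms4a4b, chr19:11443308-11443607, plus strand: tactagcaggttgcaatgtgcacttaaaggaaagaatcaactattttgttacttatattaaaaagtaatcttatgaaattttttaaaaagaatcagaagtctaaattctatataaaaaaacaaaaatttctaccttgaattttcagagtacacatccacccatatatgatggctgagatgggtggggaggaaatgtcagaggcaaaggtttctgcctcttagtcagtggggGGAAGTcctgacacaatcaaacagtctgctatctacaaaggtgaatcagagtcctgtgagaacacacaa
Ms4a6c, chr19:11469118-11469417, plus strand: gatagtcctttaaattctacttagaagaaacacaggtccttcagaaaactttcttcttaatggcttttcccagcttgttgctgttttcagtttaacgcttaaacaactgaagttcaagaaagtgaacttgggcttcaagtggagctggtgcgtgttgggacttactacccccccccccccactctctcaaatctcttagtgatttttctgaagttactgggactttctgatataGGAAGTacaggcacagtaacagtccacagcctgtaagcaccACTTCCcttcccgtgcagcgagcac
Ms4a6b, chr19:11518309-11518608, plus strand: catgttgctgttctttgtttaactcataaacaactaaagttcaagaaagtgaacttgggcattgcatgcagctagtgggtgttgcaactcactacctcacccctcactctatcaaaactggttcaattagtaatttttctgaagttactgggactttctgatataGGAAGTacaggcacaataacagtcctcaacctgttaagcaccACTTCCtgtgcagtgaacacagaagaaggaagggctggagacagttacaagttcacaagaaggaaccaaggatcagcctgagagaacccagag
All 5 members had GGAAGT in the window shown, a motif that 23.8% of 32851 promoter windows hold. A second start window of Ms4a7 (chr19:11334646-11334945), not shown, had no GGAAGT. The match nearest the start lay 15 bases before it in Ms4a7 and Ms4a4c, 19 bases before it in Ms4a4b, 16 bases before it in Ms4a6c and 43 bases before it in Ms4a6b. Ms4a6c had a further match 25 bases after the start, and Ms4a6b one 85 bases before it. The motif was picked for display after its matches were seen, from 7 searched on both strands, and matches to different motifs did not overlap in the windows shown. TGTGGT, a core of RUNX factors, was in the Ms4a4c window (16.8% of all windows). TGANTCA, a core of AP-1 factors, was in the Ms4a4b window and in the second Ms4a7 window, which is not shown (7.81% of all windows). No member window held the C/EBP form TTNNGCAA (10.8% of all windows), the PU.1 form GAGGAAG (13.6%), the interferon-stimulated response element (3.44%) or the ETS-IRF composite element (2.72%). Ms4a4c and Ms4a4b, side by side on the chromosome, matched at 237 of 321 aligned bases (73.8%), with a longest shared run of 20 bases (ttctgcctcttagtcagtgg). The windows of Ms4a6c and Ms4a6b shared a run of 48 bases, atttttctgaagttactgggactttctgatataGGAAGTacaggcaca, and the other pairs of members matched at 48.3% to 53.6% of aligned bases. A match is a description of these letters and not a binding site.

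Ms4a1 marked B cells. Its level in the brain with metastases was 3.50 CP10k (3.21 to 3.80) in the B cell-like cluster, and 0.0361 CP10k in the next cluster. The B cell-like cluster of the blood had 9.84 CP10k (9.29 to 10.4), with 10.5 CP10k in depleted-labelled cells and 9.36 CP10k in control-labelled cells. No other blood cluster was above 0.310 CP10k, so both samples placed the gene in the same cells. After each cell was thinned to 2000 corrected UMIs, a UMI of Ms4a1 was found in 47.9% of B cell-like cells of the brain with metastases and 77.9% of those of the blood (86.3% and 93.2% before thinning). Neutrophils, which should lack CD20, gave 0 of 966 cells in the blood, which allows a share of up to 0.381%. The B cell-like cluster of the blood was 8.52% of the cells and held 91.5% of all Ms4a1 UMIs there. Without shared barcodes the levels were 4.10 CP10k (brain with metastases) and 10.6 CP10k (blood).

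The naive brain had no B cell-like cluster of its own, and Ms4a1 stayed low in every cluster there. Its highest level was 0.369 CP10k (0.328 to 0.413) in the microglia-like cluster, which kept it below the minimum of 0.5 CP10k used for a measured gene. The B cell receptor genes Cd79a and Cd79b separated those cells: 138 of the cluster's 820 cells had a UMI of either gene and held 98.3% of its Ms4a1 UMIs, at 2.14 CP10k, against 0.0073 CP10k in the 682 cells with neither. In the whole naive brain 63 of 72 cells with Ms4a1 also had Cd79a or Cd79b (87.5%), whereas 8.14% of cells without Ms4a1 did. The same share was 85.4% (117 of 137 cells) for the brain with metastases and 97.2% (281 of 289 cells) for the blood. Of the 54 Ms4a1-positive cells of the microglia-like cluster, 28 also had a UMI of the microglial receptor gene P2ry12. The split by Cd79a and Cd79b was chosen after the values were seen.

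**Figure D1:**
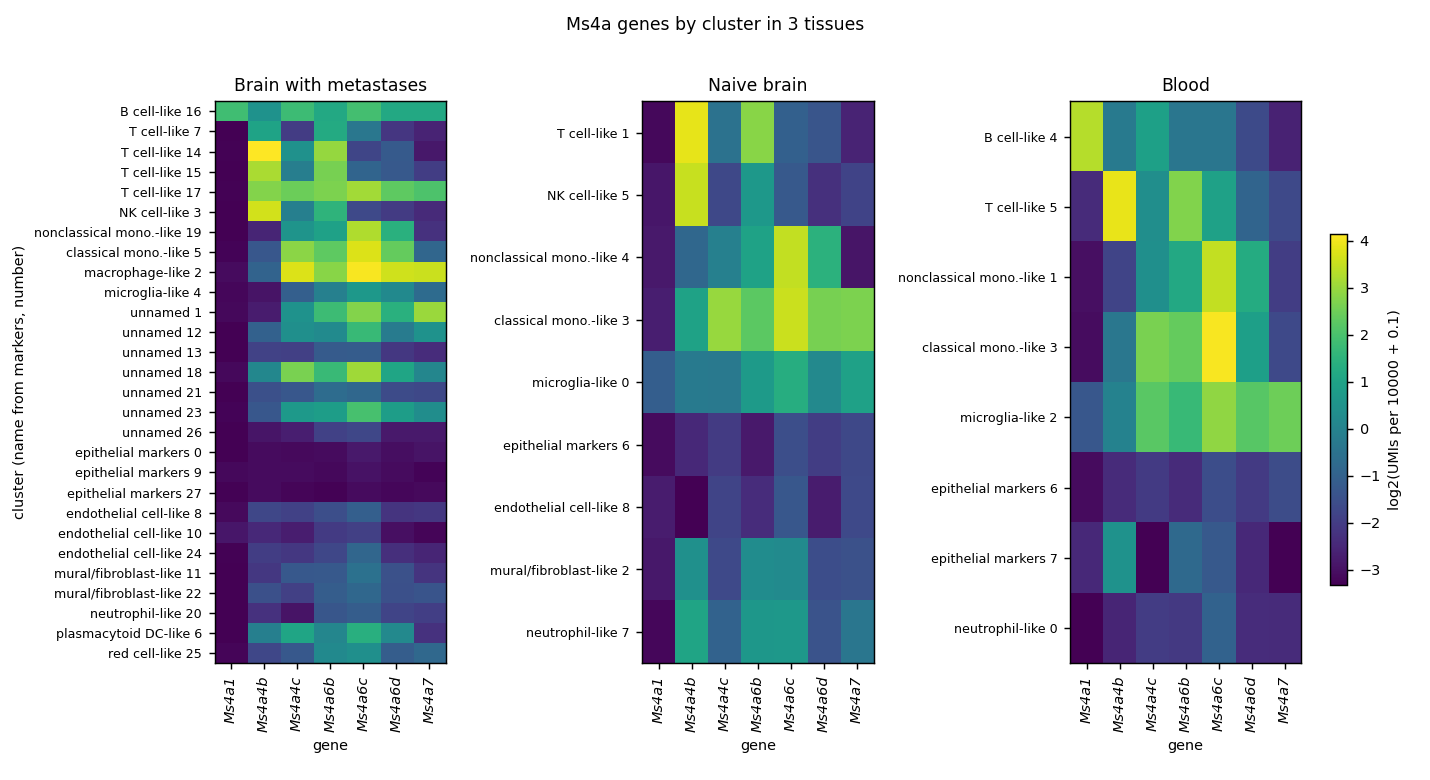
Level of each Ms4a gene (columns) in each cluster (rows) of the brain with metastases, the naive brain and the blood, as log2 of UMIs per 10000 plus 0.1, with 1 value per cluster and tissue. Ms4a1 is bright in B cell-like rows, Ms4a4b in T and NK cell-like rows, and Ms4a4c, Ms4a6c, Ms4a6d and Ms4a7 in rows of monocytes and macrophages.

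Ms4a4b marked T cells and, in the 2 brain matrices, NK cells. In the brain with metastases the Cd8a-rich T cell-like cluster had 17.5 CP10k (17.2 to 17.9) and the NK cell-like cluster 12.3 CP10k. The naive brain had 14.4 CP10k (14.1 to 14.8) in the T cell-like cluster, with 14.5 CP10k in depleted-labelled cells and 14 CP10k in control-labelled cells. Its NK cell-like cluster had 11.3 CP10k, with 11.4 CP10k in depleted-labelled cells and 10.8 CP10k in control-labelled cells. The arms lay close together in both clusters, and no other cluster of the naive brain was above 1.93 CP10k. In the blood the T cell-like cluster had 14.7 CP10k (14 to 15.4), with 13.8 CP10k in depleted-labelled cells and 15.6 CP10k in control-labelled cells, and the next cluster had 1.28 CP10k. No blood cluster was named NK cells, and the blood T cell-like cluster, led by Gzma, Nkg7 and Ccl5, passed for 8 of 8 NK markers beside 9 of 10 T cell markers. Thinned cells had a Ms4a4b UMI in 90.2% of the Cd8a-rich T cell-like cluster of the brain with metastases, 84.6% of T cell-like cells of the naive brain and 80.6% of those of the blood (99.5%, 93.8% and 91.3% before thinning). Myeloid clusters gave less after thinning and differed among themselves. In the blood, nonclassical monocyte-like cells gave 2.91%, classical monocyte-like cells 11.5% and microglia-like cells 11.3%. In the naive brain, nonclassical monocyte-like cells gave 7.23%, microglia-like cells 8.17%, neutrophil-like cells 15.2% and classical monocyte-like cells 19.1%.

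T cell-like clusters of the brain with metastases differed in Ms4a4b. The cluster led by Foxp3 and Ctla4, genes of regulatory T cells, had 9.07 CP10k (8.68 to 9.48) and a UMI in 64.3% of thinned cells. A cluster led by Il17a, a T cell cytokine gene, and Cd163l1, a gene of gamma delta T cells, had 1.91 CP10k (1.73 to 2.10) and a UMI in 19.9% of thinned cells. The Il17a cluster was thus the lowest of the T cell-like clusters. Antibody gates, which the authors set on surface protein and not on RNA, gave an order between T cell types. CD8+ cells of the naive brain had 18.3 CP10k in 154 cells, against 12.3 CP10k in 39 CD4+ cells, and CD8+ cells of the blood had 11.9 CP10k in 80 cells, against 7.94 CP10k in 71 CD4+ cells. The order held in the naive brain without shared barcodes (19.1 CP10k in CD8+ and 12.6 CP10k in CD4+ cells) and turned in the blood, with 10.6 CP10k in 28 CD8+ cells and 11.8 CP10k in 35 CD4+ cells. The CD8+ and CD4+ gates of the blood also held 32.5% and 31.0% of cells from the microglia-like cluster, whose part in the levels was not tested.

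Ms4a6b was shared by T cells and myeloid cells. In the brain with metastases it had 7.70 CP10k in the Cd8a-rich T cell-like cluster, 6.98 CP10k in the macrophage-like cluster and 4.75 CP10k in classical monocyte-like cells. The T cell-like cluster of the naive brain had 6.91 CP10k (6.67 to 7.15), with 6.87 CP10k in depleted-labelled cells and 7.16 CP10k in control-labelled cells. Classical monocyte-like cells of the naive brain, which shared 62.2% of their barcodes with another matrix, followed with 4.71 CP10k (3.09 CP10k without shared barcodes), with 4.34 CP10k in depleted-labelled cells and 5.27 CP10k in control-labelled cells. The 2 clusters kept that order in both arms. In the blood the T cell-like cluster had 6.52 CP10k, with 5.66 CP10k in depleted-labelled cells and 7.42 CP10k in control-labelled cells. Classical monocyte-like cells of the blood had 5.13 CP10k, with 3.86 CP10k in depleted-labelled cells and 6.66 CP10k in control-labelled cells. NK cell-like cells, rich in Ms4a4b, were low in Ms4a6b, with 2.81 CP10k (brain with metastases) and 1.49 CP10k (naive brain).

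The share of cells with Ms4a6b was higher among cells with Ms4a4b in 8 of 8 lymphoid clusters and in 10 of 12 other clusters that were counted. The difference was thus not confined to lymphoid cells. Not all clusters were counted. Among those left out were the T cell-like clusters of the brain with metastases led by Il17a and by Xcl1. All neutrophil, mural and endothelial clusters were also left out. In the Cd8a-rich T cell-like cluster of the brain with metastases, 70.7% of thinned cells with Ms4a4b had Ms4a6b, and 56.4% of those without it. In T cell-like cells of the naive brain the shares were 73.0% with Ms4a4b and 48.1% without, and in the blood 63.3% with and 50.0% without. NK cell-like cells gave 37.5% with and 29.3% without in the brain with metastases, and 28.9% with and 12% without in the naive brain. Microglia-like cells of the blood gave 54.7% with and 29.9% without. Cells of 1 sample are not replicates, so these shares are a description.

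The other 4 members marked myeloid cells, each with its own order of monocytes, macrophages and microglia. Classical monocytes are the Ly6C-high cells that enter inflamed tissue, and nonclassical monocytes are the Nr4a1-dependent cells that patrol vessels. Ms4a6c was carried by both monocyte types. In the brain with metastases it had 16.5 CP10k (16.2 to 16.8) in the macrophage-like cluster, 13.3 CP10k in classical and 9.31 CP10k in nonclassical monocyte-like cells, against 1.49 CP10k in microglia-like cells. In the naive brain it had 11.5 CP10k in classical monocyte-like cells, with 10.2 CP10k in depleted-labelled cells and 13.4 CP10k in control-labelled cells. Nonclassical monocyte-like cells of the naive brain had 10.9 CP10k, with 4.76 CP10k in 18 depleted-labelled cells and 11.6 CP10k in 148 control-labelled cells, and microglia-like cells had 2.39 CP10k. The 2 monocyte types lay close together there, and without shared barcodes nonclassical cells led with 11.2 CP10k, against 8.85 CP10k in classical cells. Classical monocyte-like cells of the blood had 16.6 CP10k (16 to 17.1), with 14.6 CP10k in depleted-labelled cells and 19 CP10k in control-labelled cells. Nonclassical monocyte-like cells of the blood had 10.9 CP10k, with 11.6 CP10k in depleted-labelled cells and 8.18 CP10k in control-labelled cells. Thinned cells with Ms4a6c made up 93.5% of classical and 73.6% of nonclassical monocyte-like cells of the blood, against 7.87% of neutrophils.

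Ms4a4c separated classical from nonclassical monocytes. It had 7.0 CP10k in classical and 1.36 CP10k in nonclassical monocyte-like cells of the brain with metastases, and its highest level was 13.3 CP10k (13.1 to 13.6) in the macrophage-like cluster. The naive brain had 7.79 CP10k in classical monocyte-like cells, with 6.30 CP10k in depleted-labelled cells and 10.0 CP10k in control-labelled cells. Its nonclassical monocyte-like cells had 0.857 CP10k. In the blood classical monocyte-like cells had 6.10 CP10k, with 4.63 CP10k in depleted-labelled cells and 7.89 CP10k in control-labelled cells, and nonclassical monocyte-like cells had 1.21 CP10k. Classical cells were above nonclassical cells in every sample that held both. Thinned cells with Ms4a4c were 68.6% of classical monocyte-like cells in the brain with metastases, 58.0% in the naive brain and 62.8% in blood, while nonclassical cells gave 12.7% (naive brain) and 14.8% (blood). Of 148 nonclassical cells of the brain with metastases, 20 had Ms4a4c together with Ms4a6c and 7 had Ms4a4c without it. B cell-like cells of the blood also had the gene, at 1.78 CP10k (1.55 to 2.03), with 1.28 CP10k in depleted-labelled cells and 2.13 CP10k in control-labelled cells.

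Ms4a6d, which in mouse macrophages acts with the receptor VSIG4 to restrain the Nlrp3 inflammasome, was highest in macrophages. The macrophage-like cluster of the brain with metastases had 11.9 CP10k (11.7 to 12.2), followed by classical monocyte-like cells with 5.12 CP10k and nonclassical with 2.54 CP10k. Microglia-like cells had 1.06 CP10k there and 1.04 CP10k in the naive brain. In the naive brain the classical monocyte-like cluster had 6.01 CP10k, with 5.16 CP10k in depleted-labelled cells and 7.29 CP10k in control-labelled cells, and nonclassical cells had 2.67 CP10k. Without shared barcodes the 2 clusters lay closer, with 3.33 CP10k in classical and 2.72 CP10k in nonclassical cells. Nonclassical cells of the naive brain had 0.557 CP10k in 18 depleted-labelled cells (9 UMIs) and 2.94 CP10k in 148 control-labelled cells. The order of the 2 monocyte types turned in the blood, where classical monocyte-like cells had 1.77 CP10k and nonclassical cells 2.31 CP10k. That order differed between the arms of the blood: nonclassical cells were above classical cells among depleted-labelled cells (2.68 and 1.08 CP10k) and below them among control-labelled cells (0.818 and 2.60 CP10k). The highest blood level was 4.49 CP10k in the microglia-like cluster.

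Ms4a7, a gene of border-associated and monocyte-derived macrophages, was the member with the sharpest split among myeloid cells. In the brain with metastases it had 11.5 CP10k (11.3 to 11.8) in the macrophage-like cluster, which was led by Cxcl9 and Ccl8 and had Ms4a7 and Ms4a6d among its 10 leading genes, and 8.04 CP10k in an unnamed cluster of 63 cells led by Apoe, Mrc1 and Stab1. Microglia-like cells there had 0.508 CP10k, classical monocyte-like cells 0.448 CP10k and nonclassical cells 0.11 CP10k. The macrophage-like cluster was 10.5% of the cells and held 73.6% of the Ms4a7 UMIs. In the naive brain the classical monocyte-like cluster had 6.21 CP10k (3.58 CP10k without shared barcodes), with 4.59 CP10k in depleted-labelled cells and 8.67 CP10k in control-labelled cells. Nonclassical monocyte-like cells of the naive brain had 0.0343 CP10k, and 3.01% of these 166 cells had a UMI before thinning. In the blood both monocyte types were low, with 0.211 CP10k in classical and 0.157 CP10k in nonclassical cells, and 89.5% of the UMIs lay in the microglia-like cluster at 5.49 CP10k, the same in both arms. Thinned cells with Ms4a7 were 56.3% of macrophage-like cells of the brain with metastases, 32.5% of classical monocyte-like cells of the naive brain and 2.82% of those of the blood (unthinned 72.9% and 44.2% in the first 2). By that share the unnamed cluster of 63 cells led in the brain with metastases, with 65.1% of thinned cells.

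Within clusters Ms4a7 followed Mrc1, Pf4 and Cd163, genes of border-associated macrophages. The macrophage-like cluster of the brain with metastases had 17.2 CP10k in the 253 cells with a UMI of any of these genes and 7.55 CP10k in the other 367 cells. Microglia-like cells of that tissue had 2.09 CP10k in 91 cells with them and 0.0953 CP10k in 363 without, so 20% of the cells held 85.1% of the cluster's Ms4a7 UMIs. In the naive brain the microglia-like cluster had 5.23 CP10k in 196 cells with them and 0.752 CP10k in 624 without, and the classical monocyte-like cluster 11 CP10k in 106 with and 3.31 CP10k in 177 without. The microglia-like cluster of the blood had 12.5 CP10k in 111 cells with them and 3.29 CP10k in 357 without. The classical monocyte-like cluster of the blood was low in both, with 0.188 CP10k in 18 cells with and 0.212 CP10k in 337 without. Ms4a6d and Ms4a6c did not split that way in the macrophage-like cluster, with 11.9 and 16.2 CP10k in cells with these genes and 12 and 16.7 CP10k in cells without. Ms4a4c ran the other way, with 10.7 CP10k in cells with them and 15.2 CP10k in cells without. These splits were chosen after the values were seen.

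**Figure D2:**
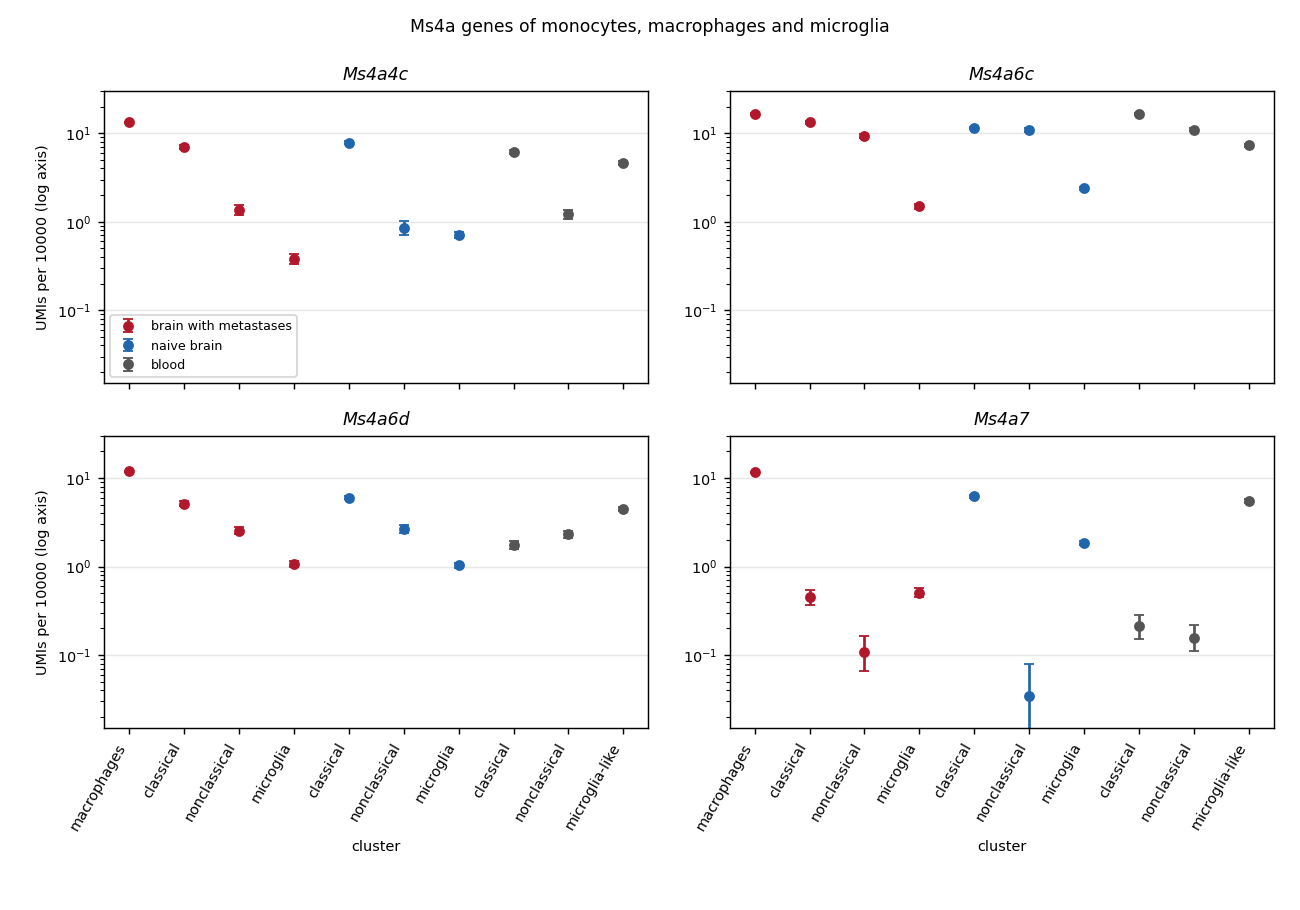
Level of Ms4a4c, Ms4a6c, Ms4a6d and Ms4a7 (vertical log axis, UMIs per 10000) in myeloid clusters of the brain with metastases, the naive brain and the blood. Points are clusters and bars are 95% counting intervals. Ms4a6c stays high in all monocyte clusters, Ms4a4c is lower in nonclassical than in classical cells, and Ms4a7 is under 1 CP10k in every monocyte cluster apart from the classical monocyte-like cluster of the naive brain.

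Counting the 4 myeloid members in single thinned cells gave each cluster a profile. All 4 were found together in 207 of 620 macrophage-like cells of the brain with metastases (33.4%), in 22.3% of classical monocyte-like cells of the naive brain and in 15.6% of microglia-like cells of the blood. Nonclassical monocyte-like cells most often had exactly 1, in 45.3% of cells of the brain with metastases, 51.2% in the naive brain and 51.8% in blood. Classical monocyte-like cells of the blood most often had 2 of the 4 (51.0%). None of the 4 was found in 66.1% of microglia-like cells of the brain with metastases, 79.4% of T cell-like cells of the naive brain and 67.5% of B cell-like cells of the blood.

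**Figure D3:**
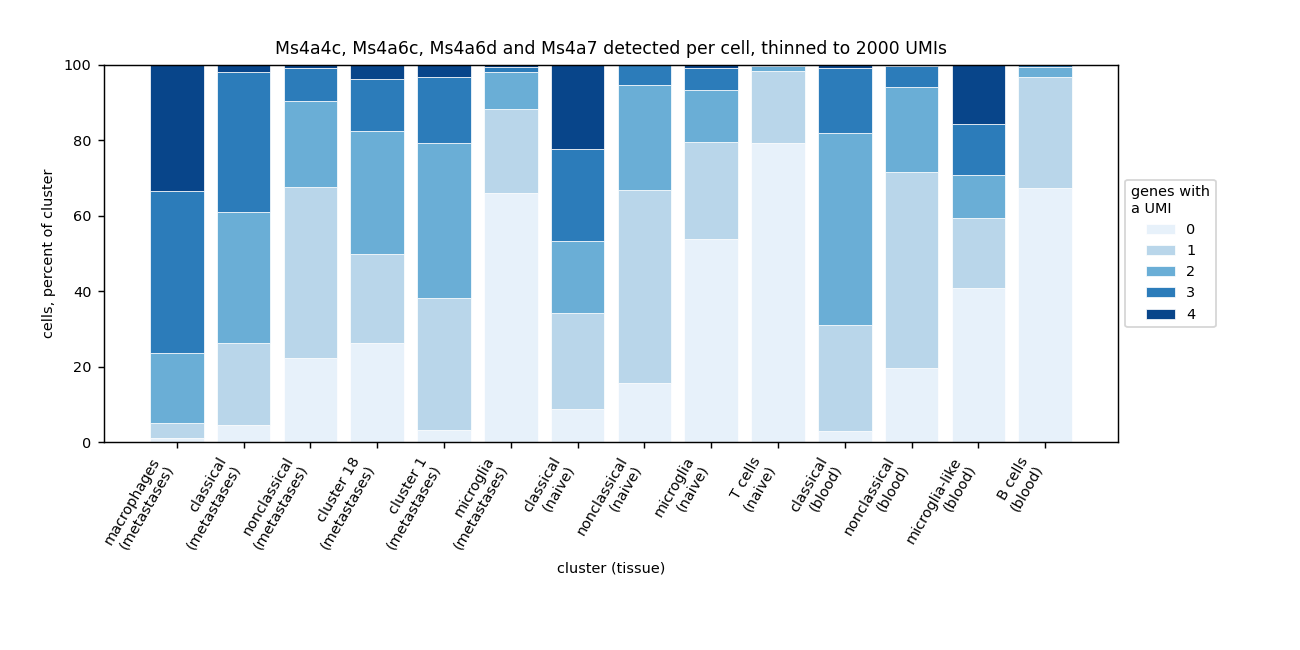
Share of cells (vertical axis, percent of a cluster) with a UMI of 0, 1, 2, 3 or 4 of the genes Ms4a4c, Ms4a6c, Ms4a6d and Ms4a7 after thinning each cell to 2000 UMIs. Macrophage-like cells of the brain with metastases have the most cells with all 4 (33.4%), and in nonclassical monocyte-like cells exactly 1 is the most common number.

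Set against all measured genes, most members were concentrated in a cluster. The leading cluster was at least 4 fold above all other cells for 6 of 7 members in the brain with metastases, where 34.4% of measured genes were. It was so for 5 of 6 measured members in the naive brain (28.8% of genes) and for 5 of 7 in the blood (34.7%). Ms4a6b missed that mark in all 3 tissues. A lead of at least 2 fold over the next cluster was rarer, with 2 of 7 members in the brain with metastases (Ms4a1 and Ms4a6d; 15% of genes), 3 of 6 in the naive brain (Ms4a4c, Ms4a6d and Ms4a7; 33.8%) and 3 of 7 in the blood (Ms4a1, Ms4a4b and Ms4a7; 37.2%). Without shared barcodes Ms4a6d lost that lead in the naive brain (3.33 CP10k, against 2.72 CP10k in the next monocyte cluster). The naive brain and blood counts are near the share of all genes. Cluster lines were drawn from the same cells, so no test of a cluster against the rest was made.

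Surface gates, which use no RNA, gave levels by cell type that do not rest on the clusters. Ly6CHigh cells had more Ms4a4c than Ly6CLow cells in the naive brain (4.97 and 1.31 CP10k) and in the blood (6.17 and 2.51 CP10k). Ms4a6c was high in both gates, with 8.42 CP10k in Ly6CHigh and 7.09 CP10k in Ly6CLow cells of the naive brain, and 16.8 and 11.3 CP10k in those of the blood. Without shared barcodes its order turned in the naive brain, with 7.26 CP10k in Ly6CHigh and 8.13 CP10k in Ly6CLow cells. Ms4a7 was low in both gates of the blood (0.19 and 0.15 CP10k) and had 2.08 and 1.53 CP10k in the naive brain, an order that turned without shared barcodes (0.662 CP10k in Ly6CHigh and 1.25 CP10k in Ly6CLow cells). The highest Ms4a7 level of the naive brain gates was 4.06 CP10k, in Ly6C+Ly6G+ cells. That gate held 51.8% neutrophil-like and 18.4% classical monocyte-like cells, whose clusters had 0.668 and 6.21 CP10k in that order. The part of this mix in the gate level was not tested. B220+ cells had the highest Ms4a1 level in both tissues, with 0.65 CP10k in naive brain and 5.69 CP10k in blood. Some gates went against their names: blood Ms4a7 was highest in the CD3+ gate (4.48 CP10k, and 0.97 CP10k without shared barcodes), and blood Ms4a6d in the NK1.1+ gate (3.34 CP10k). Those gates held 44.9% and 52.0% of cells from the microglia-like cluster, and the part of these cells in the result was not tested.

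**Figure D4:**
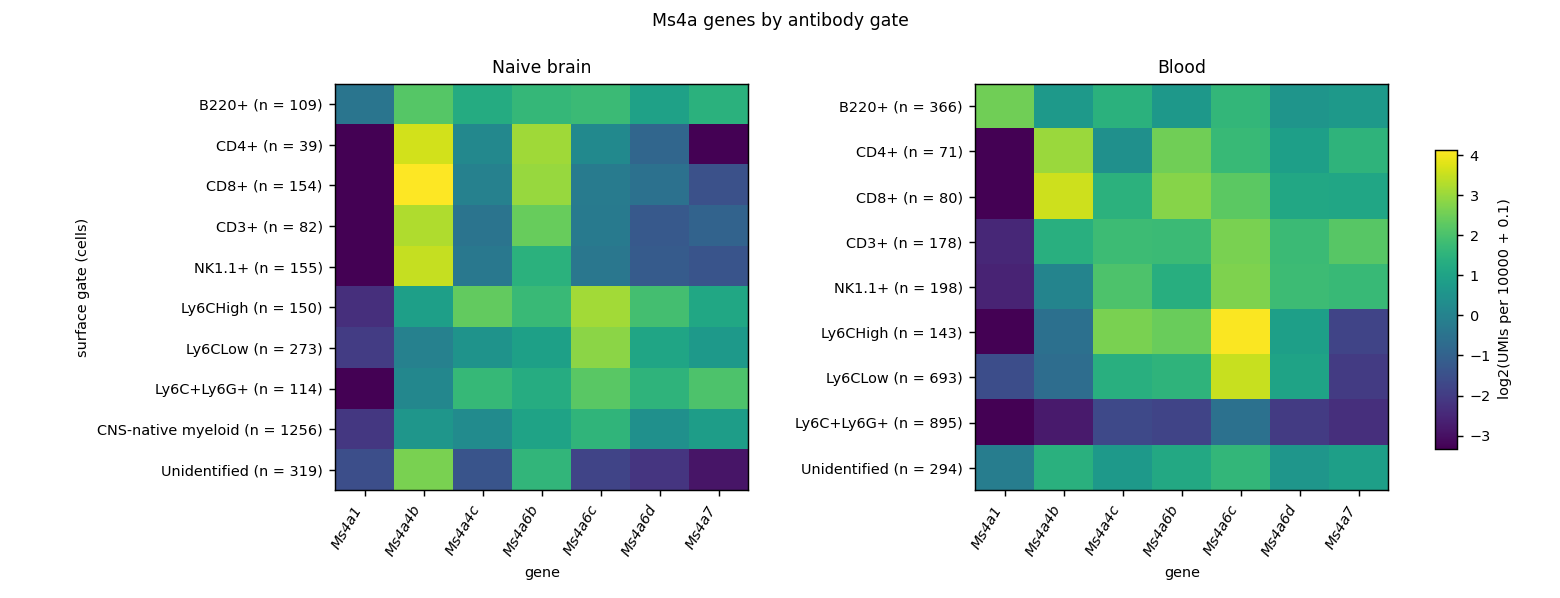
Level of each Ms4a gene (columns) in each antibody gate (rows, with cell numbers) of the naive brain and the blood, as log2 of UMIs per 10000 plus 0.1, with 1 value per gate. Ms4a4b is brightest in CD8+ cells (in the blood with shared barcodes kept; CD4+ cells led without them), and Ms4a4c is brighter in Ly6CHigh than in Ly6CLow cells.

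Between the arms, most Ms4a levels of clusters lay within 2 fold. A member that reached the minimum of 0.5 CP10k on 1 side only had to be higher on that side, so such members are named where they passed 2 fold and nothing is read from them. In the naive brain, 0 of 6 measured members differed by 2 fold in classical monocyte-like cells, where 1.8% of measured genes did in either direction, and all but Ms4a4b were lower in depleted-labelled cells. The largest of these ratios was that of Ms4a7, with 4.59 CP10k in depleted-labelled cells and 8.67 CP10k in control-labelled cells (log2 ratio of -0.90). Without shared barcodes, in 67 depleted-labelled and 40 control-labelled cells, 3 of the 6 passed 2 fold and all 6 were lower, with log2 ratios of -2.17 for Ms4a7, -1.03 for Ms4a6d and -1.38 for Ms4a4b, which had been 0.21 with all cells. T cell-like cells had 0 of 3 past 2 fold (1.14% of genes), with Ms4a4c at -0.91 and at -1.03 without shared barcodes, NK cell-like cells 0 of 2 (2.8%), and mural and fibroblast-like cells 0 of 3 (2.3%). In the microglia-like cluster, 1 of 7 members was past 2 fold, where 0.977% of genes were lower: Ms4a1 had 0.283 CP10k in depleted-labelled cells and 0.813 CP10k in control-labelled cells (log2 ratio of -1.26), and reached the minimum through control-labelled cells only. Of the 5 members measured on both sides, 0 were past 2 fold. Ms4a4b of that cluster had a log2 ratio of 0.72, and 1.83 without shared barcodes (0.592 CP10k in depleted-labelled and 0.0946 CP10k in control-labelled cells). Neutrophil-like cells had 5 of 5 measured members higher in depleted-labelled cells, where 6.02% of genes were, and Ms4a4c and Ms4a7 reached the minimum there only. There Ms4a4b had 2.98 CP10k in depleted-labelled cells and 0.693 CP10k in control-labelled cells, and Ms4a7 had 1.14 and 0.112 CP10k in the same order. That cluster shared 65.7% of its barcodes with another matrix, and without them its Ms4a4b level was 0.057 CP10k and too few cells remained for a ratio. By surface gate, log2 ratios past 2 fold in B220+ cells were those of Ms4a4c (-1.84), Ms4a6d (-1.81), Ms4a6c (-1.64) and Ms4a7 (-1.64). Ly6CLow cells had Ms4a7 (1.76), Ms4a4b (1.13), Ms4a6c (-1.13) and Ms4a6d (-1.02). Ly6C+Ly6G+ cells had Ms4a4b (1.09) and Ms4a4c (-1.51), and Unidentified cells Ms4a4b (1.33) and Ms4a6b (1.28). NK1.1+ cells had Ms4a4c (1.67) and Ms4a6c (2.02), both measured in depleted-labelled cells only. No share of all genes is given for the gates, so nothing is read from the number of these ratios. The gates mixed clusters. Of the Ly6CLow cells 41.0% were nonclassical monocyte-like, a cluster with 18 depleted-labelled and 148 control-labelled cells. The part of that mix in the gate ratios was not tested.

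In the blood clusters Ms4a6d was the member past 2 fold. Nonclassical monocyte-like cells had 2.68 CP10k in depleted-labelled cells and 0.818 CP10k in control-labelled cells, a log2 ratio of 1.60 (1 of 4 measured members higher, against 0.99% of genes). Classical monocyte-like cells had 1.08 CP10k in depleted-labelled cells and 2.60 CP10k in control-labelled cells, a log2 ratio of -1.19 (1 of 5 lower, against 0.691% of genes). The counting intervals of Ms4a6d did not overlap in either cluster, but they leave out the spread between mice. Those of Ms4a4c, Ms4a6b and Ms4a6c in classical cells and of Ms4a6c in nonclassical cells did not overlap either. Without shared barcodes the ratios of Ms4a6d were 2.42 and -1.25. In T cell-like cells the ratio of Ms4a6d was 1.30 (1 of 5 higher, against 1.11% of genes), measured in depleted-labelled cells only, and 0.16 without shared barcodes, where Ms4a6c was at -1.76 in place of 0.01. Ms4a4c, Ms4a6b and Ms4a6c of classical monocyte-like cells were also lower in depleted-labelled cells, with log2 ratios of -0.76, -0.77 and -0.38, none past 2 fold. Ms4a1 in B cell-like cells differed little (0.16), with 0 of 5 members past 2 fold there (1.29% of genes). The microglia-like cluster of the blood had 0 of 6 past 2 fold (1.4% of genes), and neutrophil-like cells 0 of 1 (0.648%). By surface gate, Ms4a6d had a log2 ratio of -1.18 in Ly6CHigh cells and 0.48 in Ly6CLow cells, where it was not past 2 fold. Other members past 2 fold by gate were Ms4a6b of Ly6CHigh cells (-1.02), Ms4a7 of CD8+ cells (-1.14) and Ms4a4b of cells labelled Unidentified (-1.05). No share of all genes is given for these gates either, so nothing is read from the number of such ratios. Over the same clusters Cx3cr1 had 3.64 CP10k in depleted-labelled cells and 0.286 CP10k in control-labelled cells in nonclassical cells, and 2.15 and 0.170 CP10k in the same order in classical cells; its part in these differences was not tested.

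**Figure D5:**
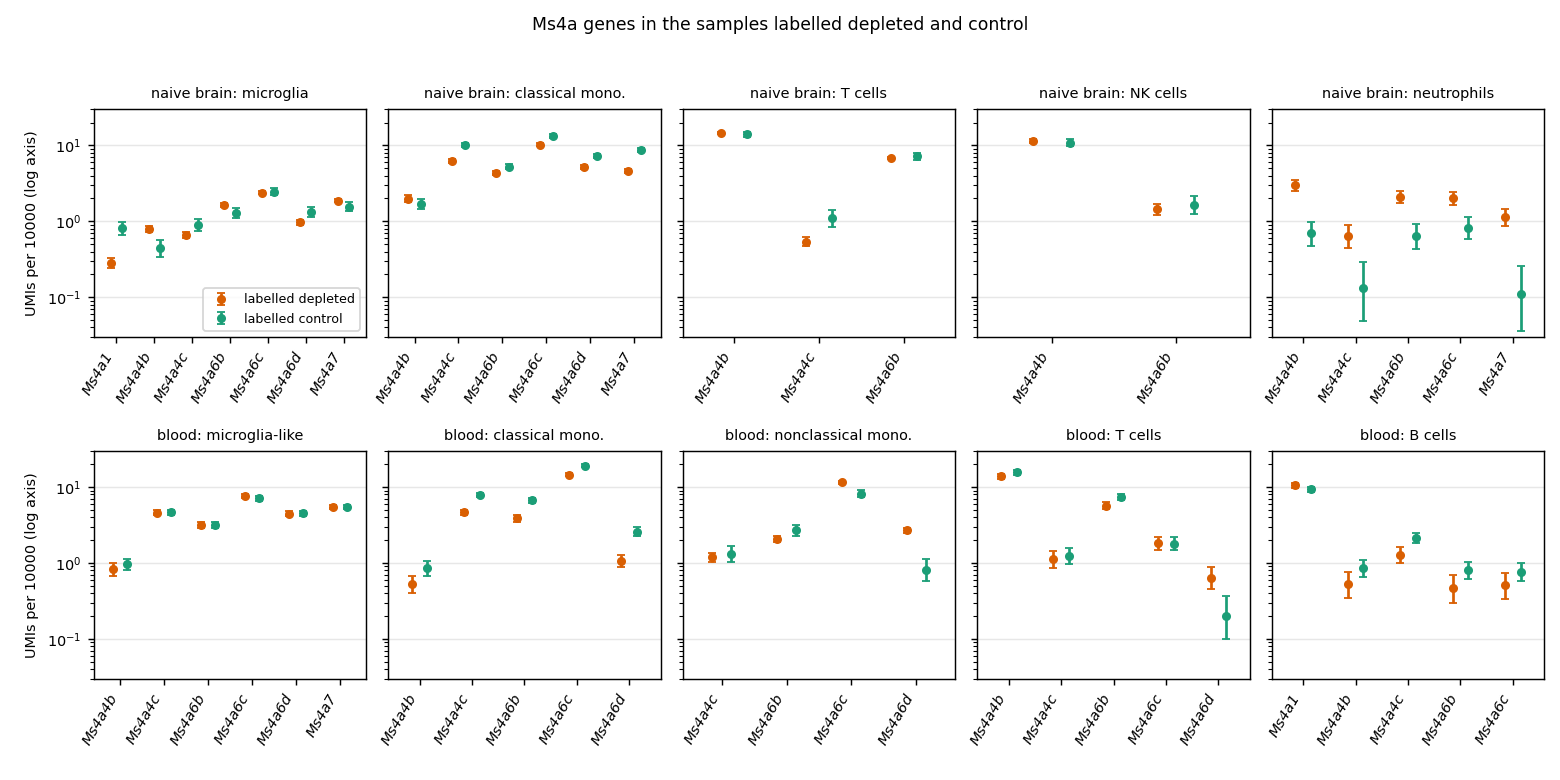
Level of the measured Ms4a genes (vertical log axis, UMIs per 10000) in depleted-labelled and control-labelled cells, for clusters of the naive brain (top) and the blood (bottom). Bars are 95% counting intervals of 1 sample each. Most pairs lie within 2 fold, and Ms4a6d of the blood is higher in nonclassical and lower in classical monocyte-like cells labelled depleted.

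Between tissues, members that reached the minimum of 0.5 CP10k on 1 side only are again named, and nothing is read from them. The level of Ms4a7 in classical monocyte-like cells was 0.448 CP10k in the brain with metastases and 6.21 CP10k in the naive brain. Its log2 ratio was -3.52 (-2.59 without shared barcodes). In the brain with metastases 2 of 6 measured members, Ms4a7 and Ms4a4b, were at least 2 fold lower, against 7.07% of genes. Both reached the minimum in the naive brain only. Of the 4 members measured on both sides, 0 were past 2 fold. The Ms4a7 level depended on the cluster lines. At a Leiden resolution of 0.5, the cluster of the brain with metastases named classical monocytes had 8.90 CP10k in 872 cells. Of these cells 69.2% came from the macrophage-like cluster, and the naive brain had no macrophage-like cluster. Set against the blood, at 0.211 CP10k, the naive brain cluster was 4.34 higher on the log2 scale (3.65 without shared barcodes), and 3 of 6 members were higher, against 11.2% of genes. Of these Ms4a7, measured in the naive brain only, stayed past 2 fold without shared barcodes, while Ms4a6d went to 0.85 in place of 1.71 and Ms4a4b to 0.92 in place of 1.35. In the naive brain cluster, 66.7% of the Ms4a7 UMIs lay in cells with Mrc1, Pf4 or Cd163, which were 37.5% of its cells. These matrices were normalized separately, so ratios between them also carry any difference in that step. The blood came from mice with metastases, so for the naive brain against the blood, tissue and metastasis cannot be told apart. Nonclassical monocyte-like cells had 0 of 4 members past 2 fold between the brain with metastases and the naive brain (1.22% of genes) and 0 of 4 between the naive brain and the blood (4.87%). For Ms4a6c the naive brain and the blood had 10.9 CP10k each.

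Microglia-like cells had less Ms4a7 in the brain with metastases, with 0.508 CP10k against 1.83 CP10k in the naive brain (log2 ratio of -1.66). There 2 of 6 members were at least 2 fold lower, Ms4a7 and Ms4a4b, against 2.26% of genes, and Ms4a4b reached the minimum in the naive brain only. Among cells without Mrc1, Pf4 or Cd163 the Ms4a7 levels were 0.0953 CP10k (brain with metastases) and 0.752 CP10k (naive brain). Against the microglia-like cluster of the blood, that of the naive brain had lower Ms4a4c (0.704 and 4.62 CP10k), Ms4a6c (2.39 and 7.30 CP10k), Ms4a6d (1.04 and 4.49 CP10k) and Ms4a7 (1.83 and 5.49 CP10k), 4 of 6 members against 9.43% of genes.

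T cell-like cells had their lymphoid members within 2 fold between tissues. Ms4a4b had 10.9 CP10k in the brain with metastases, 14.4 CP10k in the naive brain and 14.7 CP10k in blood, and Ms4a6b had 6.11, 6.91 and 6.52 CP10k in that order. The myeloid members Ms4a4c, Ms4a6c, Ms4a6d and Ms4a7 were higher in the brain with metastases than in the naive brain, with log2 ratios of 1.47, 2.15, 1.78 and 2.60, 4 of 6 members against 6.2% of genes, 3 of them (all but Ms4a4c) measured in the brain with metastases only. All 4 rested on cluster 17, a T cell-like cluster of 180 cells led by Xcl1 and Cxcr3 that also had the monocyte gene F13a1 among its leading genes and shared 54.4% of its barcodes: without it the ratios were 0.51, -0.10, -0.02 and 0.03. In NK cell-like cells, Ms4a4c was higher in the brain with metastases (0.838 CP10k) than in the naive brain (0.204 CP10k), a log2 ratio of 1.62, 1 of 3 members against 1.03% of genes, and reached the minimum in the brain with metastases only. The T cell-like cluster of the naive brain had less Ms4a6c than that of the blood (log2 ratio of -1.96, and -0.68 without shared barcodes; 1 of 4 members, measured in the blood only, against 4.9% of genes). Blood T cell-like cells with a UMI of the myeloid gene Lyz2 had 3.13 CP10k of Ms4a6c, against 0.27 CP10k in those without.

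In neutrophil-like cells, all 4 measured members reached the minimum in the naive brain only. Their direction was fixed by that minimum, so nothing is read from the counts. The brain with metastases was lower for 4 of 4 (6.06% of genes) and the naive brain was higher than the blood for 4 of 4 (11.3% of genes). Without shared barcodes 2 of 4 and 3 of 4 stayed past 2 fold. The Ms4a4b difference rested on shared barcodes: without them the level was 0.0226 CP10k in the brain with metastases, 0.057 CP10k in the naive brain and 0.0449 CP10k in blood. Mural and fibroblast-like cells were lower in the brain with metastases for 2 of 3 members (13.5% of genes), both measured in the naive brain only.

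For each member, the genes whose levels ran most like it over the 45 clusters of the 3 matrices were listed. They were picked for that likeness, so a cell type shared with the member is not a separate result. The highest Pearson correlations with Ms4a1 were those of Cd79a (0.945), Cd79b (0.887) and Jchain (0.884), genes of B and plasma cells. Ms4a4b ran with Lck (0.962), the T cell kinase, and Skap1 (0.958), and Ms4a6b with Epsti1 (0.929) and Cd48 (0.928). Among the myeloid members, Ms4a6c and Ms4a6d ran with each other (0.954), Ms4a4c with Ifi211 (0.901) and Ms4a6d (0.90), and Ms4a7 with C3ar1 (0.914), the complement C3a receptor, and Mrc1 (0.908). Ms4a4b and Ms4a6b correlated at 0.724, and Ms4a1 with no other member above 0.234. The clusters share libraries, barcodes and depth within a matrix, so these are descriptions without a test, and with 1 matrix at a time 0 to 4 of the 5 most similar genes stayed the same.

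Known genes of monocytes and microglia led mostly in the clusters of those names, and those of T cells and macrophages did so in part. The nonclassical monocyte genes Ace, Treml4, Nr4a1 and Cd300e led in nonclassical monocyte-like cells in all 3 tissues, and the classical genes Ly6c2, Ccr2, F13a1 and Vcan in classical monocyte-like cells for 3 of 4 (brain with metastases) and 4 of 4 (naive brain, blood). The microglia genes P2ry12, Tmem119 and Sall1 led in microglia-like cells in all 3. The T cell genes Cd3e, Cd8a, Cd4, Tnfrsf18, Ccl5 and Foxp3 led in T cell-like cells for 5 of 6 (brain with metastases), 3 of 6 (naive brain) and 6 of 6 (blood). The others of the naive brain led in NK cell-like cells (Tnfrsf18, Ccl5) and classical monocyte-like cells (Foxp3). Of the macrophage genes Mrc1, Pf4, Apoe and Cd163, 1 of 4 (Pf4) led in the macrophage-like cluster of the brain with metastases, and the other 3 led in the unnamed cluster of 63 cells. Neither the naive brain nor the blood had a macrophage-like cluster, and there these genes led in classical monocyte-like or microglia-like cells.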

How the data were processed

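RNA, antibody-tag and hashtag libraries of 1 pool were measured, and cells were grouped by the tissue, arm, cluster and surface gate that the deposited annotation gives. Per the submitters' processing notes, Cell Ranger 3.1, Seurat 3.1.1 and mm10 were used; cell filters are not given in the sources used here. As the values show, the authors deposited UMI counts after a depth correction made in each matrix separately, on a natural log scale with 1 added (the Seurat SCTransform data slot). The raw UMI count per cell and the corrected total per cell, which has no fixed unit and is treated as a score, were taken as deposited by the authors. Another 72 annotation columns were not used, antibody and hashtag values among them, apart from gates and arms.

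Corrected UMIs were summed over cells and scaled to 10000 (CP10k). Log2 ratios used a pseudocount of 0.1 CP10k. A gene was measured at 0.5 CP10k or more on 1 side, and a comparison needed 30 cells a side. Counts past 2 fold are descriptions. All cells were kept and no doublet caller was run. The brain with metastases was clustered with scanpy 1.11.5 and igraph 0.11.9 from 2000 variable genes, 30 components from scikit-learn 1.9.0, and Leiden communities at resolution 1 on 20 neighbours. A name needed 3 markers at 0.5 CP10k and 2 fold over other cells, and no other type leading among the 10 top genes. Detection was thinned to 2000 corrected UMIs a cell, and 0 cells were shallower. Depleted-labelled and control-labelled cells held 17922978 and 7405705 corrected UMIs (naive brain) and 8245774 and 7179776 (blood). Sums and ratios were tested on simulated data, built from the classical monocyte-like clusters. Of genes given a 2 fold change, 11.5% (naive brain) and 17% (blood) passed the 2 fold mark. Of genes given a 4 fold change, 100% passed in both, so a count of 0 past 2 fold does not exclude smaller changes. Python 3.11.15, numpy 2.4.6, scipy 1.17.1, pandas 2.3.3 and matplotlib 3.10.9 were used. Promoter windows come from RefSeq, GRCm38.p6, the assembly family of mm10, with 5 of 7 members matched by symbol.

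The members and the lists were chosen with earlier results of these data known. The text names the members, the other Ms4a genes, Tmem176a and Tmem176b, the 5 genes most correlated with each member, fixed companion genes and Cx3cr1. The count over the B cell companion genes is not reported here. Genes that split a cluster were chosen after values were seen. Alternatives changed the cells kept, the summary, the pseudocount, the minimum level, the clustering and the class definition.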

Additional observations from a re-analysis of the deposited data

Results flagged for a closer look

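Ms4a6d moved in opposite directions between the arms in 2 pairs of blood clusters, on 1 sample per arm, and the difference was not tested. Nonclassical monocyte-like cells had a log2 ratio of 1.60 (depleted-labelled over control-labelled cells) and classical monocyte-like cells one of -1.19, which are 2.80 apart. T cell-like cells, at 1.30, were 2.49 from classical monocyte-like cells, but their ratio was 0.16 without shared barcodes. In the Ly6CLow gate of the blood the ratio of Ms4a6d was 0.48. Nonclassical monocyte-like cells of the naive brain ran the other way from those of the blood, with 0.557 CP10k in 18 depleted-labelled cells (9 UMIs) and 2.94 CP10k in 148 control-labelled cells.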

How the results depend on the processing

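Limits: each arm and tissue is 1 sample, barcodes are shared between matrices, levels are corrected UMIs, and depth limits what a low level shows. No paired analysis was possible because each arm and tissue has 1 sample and no test was made. The counts of pairs that follow show only how each setting moved them. No share of all genes under the same setting is given, so nothing about the members is read from these counts. Members past 2 fold between the arms numbered 6 pairs of gene and cluster (naive brain) and 3 (blood). With a pseudocount of 1 they were 1 and 1. With surface gates as classes the naive brain had 14, and with no minimum level the blood had 10. Between the brain with metastases and the naive brain 15 pairs were past 2 fold, 4 with a pseudocount of 1 and 11 without cluster 17 (chosen after seeing the data), where the log2 ratios in T cell-like cells were -0.10 for Ms4a6c and -0.016 for Ms4a6d, the signs turned. Between the naive brain and the blood 12 pairs were, and 7 without shared barcodes. In the brain with metastases the leading class was kept for 3 of 7 members at resolution 0.5, for 4 at 2 and for 4 with Ms4a genes used to cluster. For the others the leading cluster was then named classical monocytes, and in that order 69.2%, 96.4% and 96.8% of its cells came from the macrophage-like cluster. Without shared barcodes the leading gate of the blood was kept for 4 of 7 members. Of the values given for whole comparisons, 30 stayed within 1.5 times or the same direction and 10 did not; of those for single genes, 87 did, 48 moved and 2 turned.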

Other observations

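Another 5 Ms4a genes were listed, and 2 of them marked a myeloid cluster. Ms4a3, a gene of granulocyte and monocyte progenitors, had 4.79 CP10k (4.43 to 5.16) in an unnamed cluster of 102 cells of the brain with metastases led by Camp, Ngp, Elane and Mpo, genes of immature granulocytes, against 0.0008 CP10k in all other cells. Ms4a8a led in classical monocyte-like cells, with 0.822 CP10k in the brain with metastases, 0.329 CP10k in the naive brain and 1.38 CP10k in the blood. Ms4a4a stayed at or under 0.39 CP10k in every cluster, Ms4a14 at or under 0.23 CP10k and Ms4a4d at or under 0.105 CP10k. Tmem176b, a related 4-pass membrane protein of myeloid cells, had 9.79 CP10k in the unnamed cluster led by Apoe, Mrc1 and Stab1, 5.50 CP10k in the microglia-like cluster of the naive brain and 4.33 CP10k in that of the blood.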
